A study of Komagataella pastoris with 3 samples.

Results

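Glycerol use and synthesis were followed in Pichia pastoris GS115 through 3 genes, chosen by locus tag and function with earlier results of these data known. These were GUT1 (PAS_chr4_0783, glycerol kinase), GUT2 (PAS_chr3_0579, the mitochondrial glycerol-3-phosphate dehydrogenase) and GPD1 (PAS_chr2-2_0111, the cytosolic glycerol-3-phosphate dehydrogenase). They are 3 of the 5040 genes in the deposited table, and all 3 were among the 5028 genes that reached 1 FPKM in any library. FPKM scales the fragments of a gene by gene length and by library size, so levels of different genes in a library can be set side by side. The table gives locus tags without gene names, so the names and functions used here are those that came with the choice of tags and were not checked by sequence or by an annotation of this strain. By their tags, GUT1 lies on chromosome 4, GUT2 on chromosome 3 and GPD1 on chromosome 2. A reference table of the related Komagataella pastoris, which shares no tags with these data, lists GUT1 and GPD1 on chromosomes of the same number and GUT2 on one of another number. Whether chromosome numbers correspond between these genomes was not tested, and every GUT2 value rests on the tag as given.

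All groups were the same strain, labelled wild-type, grown with shaking in the glucose-containing rich medium YPD. GS115 is a histidine-auxotrophic strain of a methylotrophic yeast now usually placed in Komagataella phaffii. Cells were collected after 24, 36 and 48 h of culture, with 1 library per time point. With no replicates, no value has an error between samples and no test was possible, so each comparison is one between libraries and is read against a 2-fold rule of size. Total FPKM was 871921, 785727 and 760684 at the successive times, and the median gene stood at 54.3, 48.2 and 51.4 FPKM. Sequencing depth is unknown, since the values are already normalized. Glucose, glycerol and cell density in the cultures were not analysed here.

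GUT1 and GUT2 form the route by which yeasts use glycerol as a carbon source. Glycerol kinase phosphorylates glycerol to glycerol-3-phosphate, and the flavin-dependent enzyme GUT2, at the inner mitochondrial membrane, oxidises this to dihydroxyacetone phosphate and passes the electrons to the respiratory chain. GPD1 runs the opposite reaction in the cytosol, reducing dihydroxyacetone phosphate with NADH as the first step of glycerol synthesis, and with GUT2 it can shuttle reducing equivalents from cytosol to mitochondria. In Saccharomyces cerevisiae GUT1 and GUT2 are repressed by glucose and GPD1 is induced by osmotic stress.

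The messenger RNAs of GUT1 and GUT2 were higher at both later times than at 24 h, and that of GPD1 was lower. At 24 h all 3 already stood above the median gene, GUT1 at 5.21-fold, GUT2 at 8.77-fold and GPD1 at 10.9-fold its level. GUT1 and GUT2 both passed the 2-fold rule upward between 24 and 36 h and after 48 h still stood over 2-fold above their starting level. GPD1 passed it downward, relative to 24 h, at both later times. Between 36 and 48 h all 3 genes differed by less than 2-fold, each with the lower value at 48 h.

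GUT1, which commits glycerol to metabolism, had a level of 283 FPKM after 24 h, then 1784 FPKM after 36 h and lastly 1049 FPKM after 48 h. Its lowest value was thus after 24 h and its highest after 36 h. Its rank by level in the table went from 472 through 50 to 95 over the 3 times. Relative to the median gene of the same library, its level was 5.21-fold, 37.0-fold and 20.4-fold at the successive times.

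GUT2, the next enzyme of the route, had a level of 476 FPKM after 24 h, then 1872 FPKM after 36 h and lastly 1562 FPKM after 48 h. The order of the time points was the same as for GUT1, with a smaller decline in the last interval. The rank of GUT2 went from 270 through 42 to 56, and its level was 8.77-fold, 38.8-fold and 30.4-fold that of the median gene. Both genes of glycerol use thus exceeded 1000 FPKM at both later times, and neither did after 24 h.

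GPD1, on the side of glycerol synthesis, had a level of 594 FPKM after 24 h, then 230 FPKM after 36 h and lastly 163 FPKM after 48 h. Its level declined at each step, and its rank went from 222 through 644 to 846. Even after 48 h it was 3.17-fold above the median gene, so that GPD1 messenger remained well within the upper part of the table. At or above its level lay 4.40%, 12.8% and 16.8% of all genes at the successive times.

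**Figure D1:**
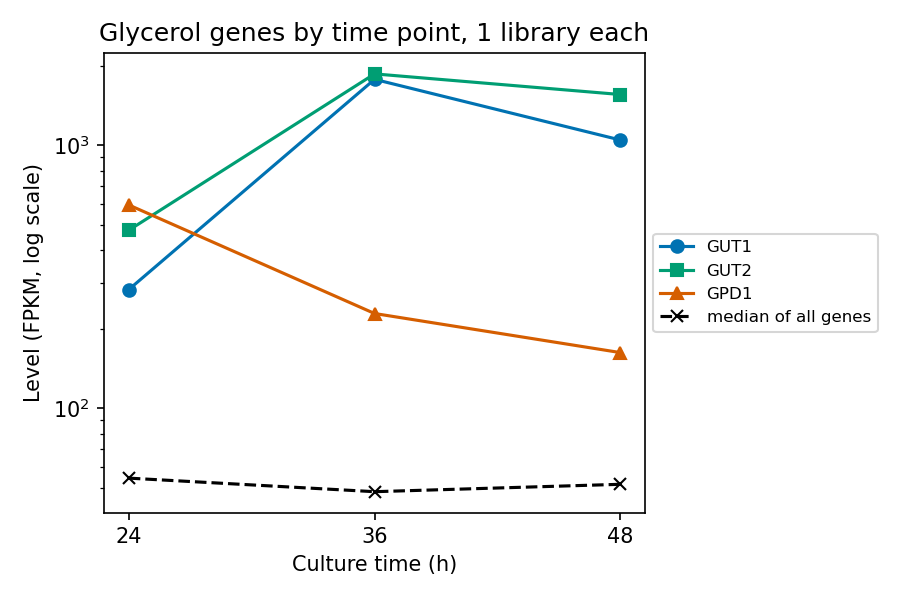
Levels of GUT1, GUT2 and GPD1 in FPKM on a log axis against culture time in hours, with 1 library per time point, and the median of all genes as a dashed line. GUT1 and GUT2 go from 283 and 476 FPKM to 1784 and 1872 FPKM in the first interval, while GPD1 goes from 594 to 230 FPKM; the median gene stays between 48.2 and 54.3 FPKM.

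The first comparison asked how the cells after 36 h differed from those after 24 h. GUT1 was 6.30-fold higher in FPKM, a change of 2.65 on the log2(FPKM + 1) scale, and 76 of 5028 genes, 1.51%, rose at least as far, itself included in this and the later counts of this kind. GUT2 was 3.93-fold higher, a log2 change of 1.97, and 136 genes, 2.70%, rose at least as far. Among all genes 9.47% were at least 2-fold higher in this comparison, and both genes of glycerol use were in that group. GUT1 also passed 4-fold, as did 2.61% of all genes, while GUT2 did not reach it as deposited and did so, at up to 2.21, under each of the 3 rescalings of the libraries that were tried.

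GPD1 kept 38.7% of its 24 h FPKM after 36 h, a log2 change of -1.37. At least 2-fold lower were 19.4% of all genes, and 12.1% fell at least as far as GPD1, so that its fall was less unusual in the table than the rises of GUT1 and GUT2. The median gene changed by -0.21 on the log2 scale between these libraries. Against that median the change was 2.86 for GUT1, 2.18 for GUT2 and -1.16 for GPD1. Scaling the libraries by the median of ratios moved the median gene to 0.02 and raised the share of higher genes among all those changed from 32.9% to 47.0%. The 3 calls were the same under that scaling.

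Of the 98 genes with at least 1000 FPKM after 36 h, 28, or 28.6%, had risen at least as far as GUT2, GUT1 and GUT2 included, against 2.70% of all genes. A high level at 36 h favours a rise up to 36 h by that choice alone, so these shares are a description. Under 500 FPKM after 24 h and at least 1000 FPKM at both later times were 25 genes of the table, 0.497%, again with both among them. These limits were chosen after the values of GUT1 and GUT2 were seen.

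The second comparison asked what changed from 36 to 48 h. GUT1 stood at 58.8% of its 36 h FPKM, a log2 change of -0.77. GUT2 stood at 83.5%, a change of -0.26, and GPD1 at 71.0%, a change of -0.49. None of the 3 passed the 2-fold rule, while 13.5% of all genes passed it upward and 13.0% downward. Of all genes 18.8% changed downward at least as far as GUT1, 36.8% as far as GUT2 and 27.5% as far as GPD1, and the median gene changed by 0.03. The changes of GUT2 and GPD1 thus lay between the quartiles of all genes, -0.55 and 0.60, and that of GUT1 lay below the lower quartile. With 1 library per time point, neither these nor the larger changes can be set against variation between libraries of the same time.

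In FPKM, the decline of GUT1 in the last interval came to 49.0% of its preceding rise, 735 of 1501 FPKM. For GUT2 it was 22.2%, 309 of 1396 FPKM. Both values share the 36 h library, so an error in that library alone would enter the rise and the decline together.

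**Figure D2:**
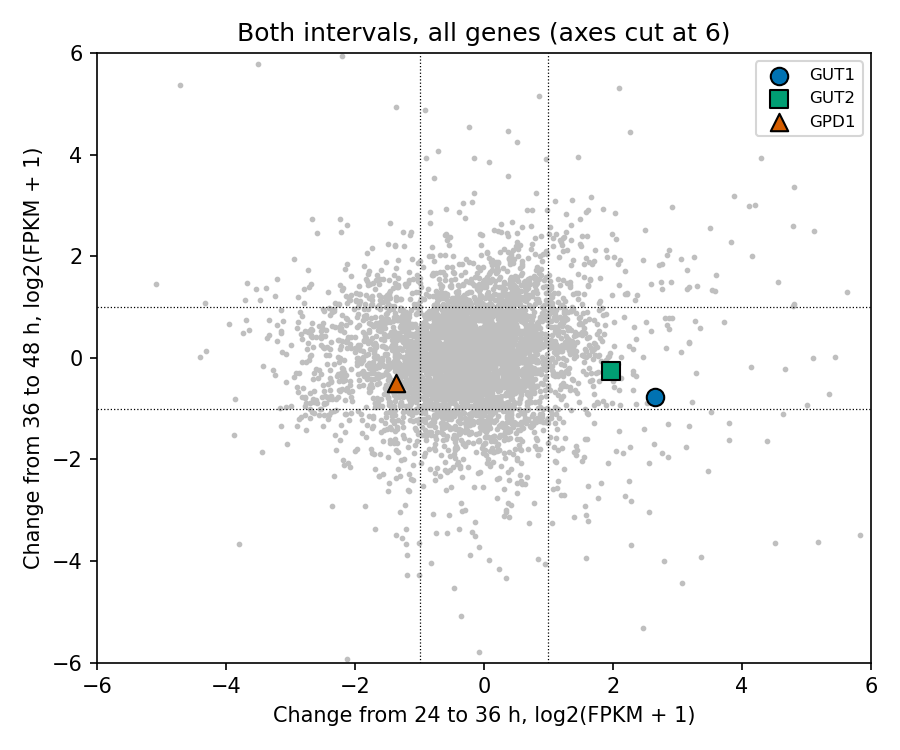
Change of log2(FPKM + 1) from 24 to 36 h (horizontal axis) against that from 36 to 48 h (vertical axis) for 5028 genes in grey, with GUT1, GUT2 and GPD1 marked; dotted lines show 2-fold and genes beyond 6 on either axis are not drawn. GUT1 (2.65 and -0.77) and GUT2 (1.97 and -0.26) lie right of the densest part of the cloud and GPD1 (-1.37 and -0.49) left of its centre, all 3 between the horizontal 2-fold lines.

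By their calls in both intervals, GUT1 and GUT2 belonged to the 265 genes, 5.27%, that passed the 2-fold rule upward in the first interval and stayed within it in the second. GPD1 belonged to the 690 genes, 13.7%, that passed it downward first and then stayed within it. A maximum after 36 h with a 48 h level over 2-fold above the 24 h level was found in 68 genes, 1.35%, which include GUT1 and GUT2. A decline at each step, of whatever size, was seen in 1583 genes, 31.5%, among them GPD1.

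Over the whole course, 48 h against 24 h, GUT1 was 3.70-fold higher in FPKM, a log2 change of 1.89. GUT2 was 3.28-fold higher, a change of 1.71. At least 2-fold higher were 18.2% of all genes, and 7.80% rose at least as far as GUT1 and 9.25% at least as far as GUT2. GPD1 kept 27.5% of its 24 h FPKM, a change of -1.86, where 28.0% of all genes were at least 2-fold lower and 11.6% fell at least as far. With median-of-ratios scaling the median gene went from -0.25 to -0.03 and higher genes made up 49.5% of the changed genes in place of 39.3%, with the calls of GUT1, GUT2 and GPD1 the same. The position of GUT1 in the table was thus less extreme over the whole course than after 36 h. The same 24 h library serves in the first comparison, so this one is no independent repeat of it.

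**Figure D3:**
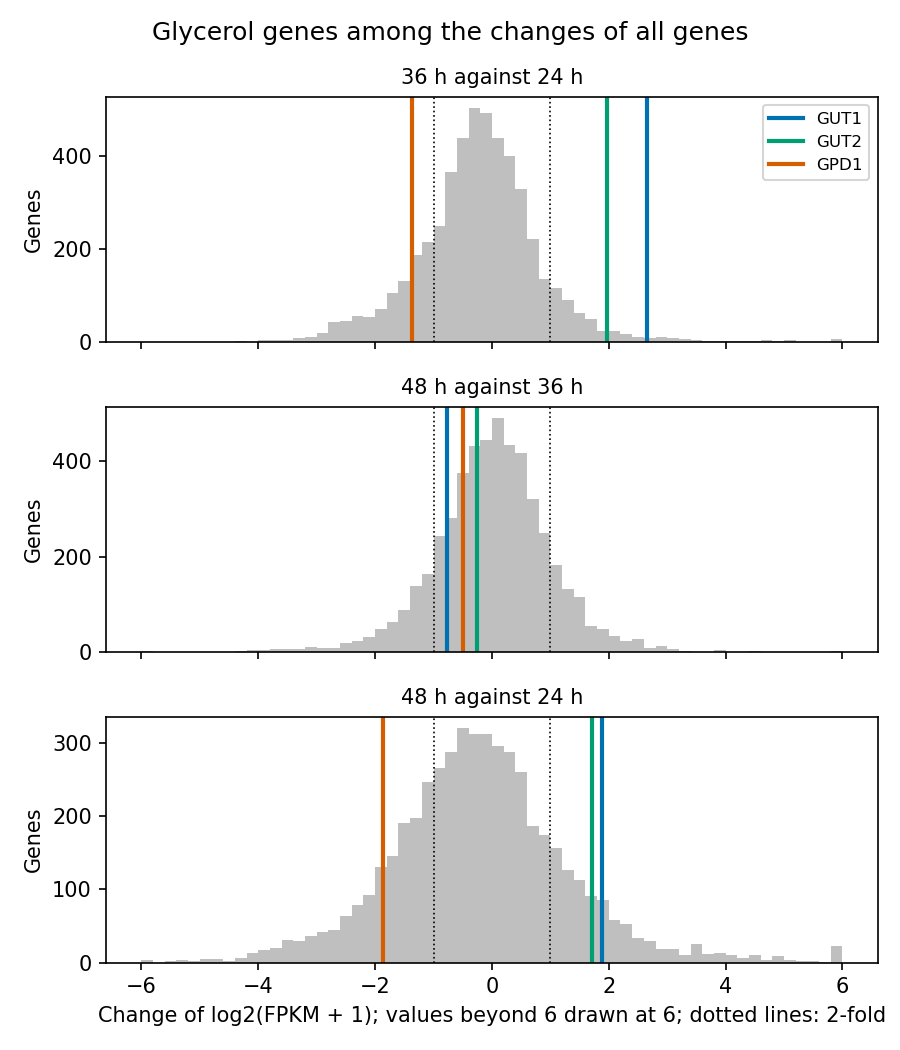
Number of genes by change of log2(FPKM + 1) in bins of 0.2 for the 3 comparisons (5028 genes in grey, values beyond 6 drawn at 6), with GUT1, GUT2 and GPD1 as coloured lines and the 2-fold limits dotted. GUT1 and GUT2 stand in the right tail in the top panel, 36 h against 24 h (2.65 and 1.97), and in the bottom panel, 48 h against 24 h (1.89 and 1.71), GPD1 on the left (-1.37 and -1.86), and all 3 lie between the dotted lines for 48 h against 36 h.

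Ratios between genes within a library are nearly free of the scaling between libraries. At 24 h the order of levels was GPD1, GUT2, GUT1, and at 36 and 48 h it was GUT2, GUT1, GPD1. At 24 h the GUT1 to GPD1 ratio was 0.477 and GPD1 was 1.25-fold above GUT2. At 36 h GUT1 was 7.77-fold and GUT2 8.15-fold above GPD1, and after 48 h the ratios were 6.43 and 9.58. The GUT1 to GPD1 ratio of FPKM + 1 was thus 16.2-fold higher after 36 h than after 24 h, and the GUT2 to GPD1 ratio 10.1-fold higher. As GPD1 and GUT2 stood 1.25-fold apart after 24 h, their order there rests on a small difference with no replicate behind it.

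Between both genes of glycerol use, the ratio moved less. GUT2 was 1.68-fold, 1.05-fold and 1.49-fold above GUT1 at the successive times. The change of GUT1 minus that of GUT2 was 0.68 on the log2 scale from 24 to 36 h and -0.51 from 36 to 48 h. Their levels were thus nearest after 36 h, and over the whole course their changes differed by 0.17.

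**Figure D4:**
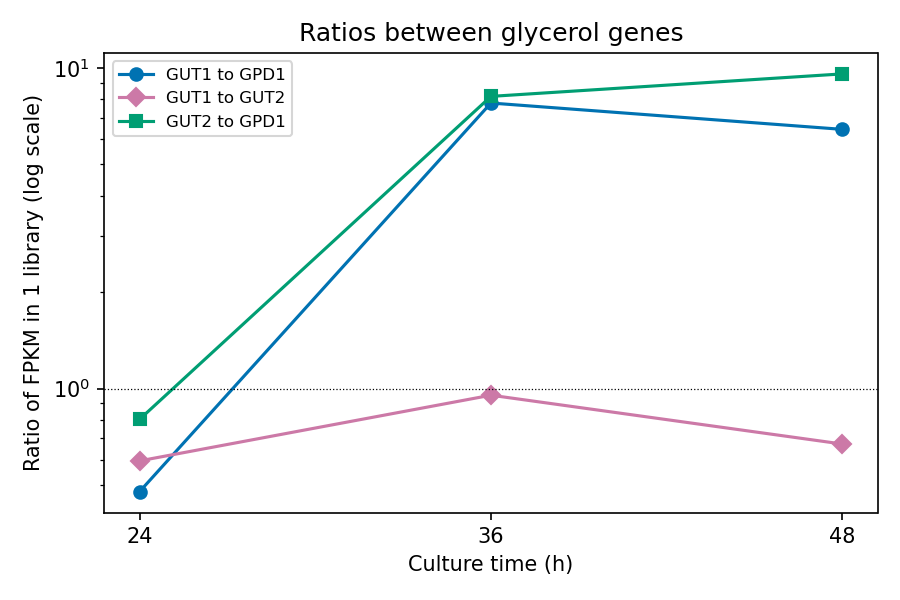
Ratio of FPKM between pairs of the 3 genes within each library, on a log axis, against culture time in hours; the dotted line marks equal levels. GUT1 to GPD1 goes from 0.477 to 7.77 and 6.43, GUT2 to GPD1 from 0.801 to 8.15 and 9.58, while GUT1 to GUT2 stays between 0.595 and 0.953.

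Summed over all 3 genes, the share of total FPKM was 0.155% at first, 0.494% in the middle and 0.365% at the end. GUT1 and GUT2 made up 0.0871%, 0.465% and 0.343% of the total. The share of GPD1 was 0.0681%, 0.0292% and 0.0214%. Of the signal of all 3 genes, GPD1 thus held the largest part after 24 h and the smallest at both later times.

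Likeness between profiles was measured as the Euclidean distance between the 3 log2(FPKM + 1) values of each gene after subtracting their mean. It thus compares shape rather than level, except that the added 1 FPKM flattens the profiles of low genes. Compared were 4948 other genes that reached 10 FPKM and were never listed at 0. Of these, 15 were nearer to GUT1 than GUT2 was, 0.303%, at a GUT1 to GUT2 distance of 0.50. Seen from GUT2, 69 genes were nearer than GUT1, 1.39%. GPD1 was far from both, with 4325 genes nearer to GUT1 and 4317 nearer to GUT2. Within a distance of 0.5 lay 410 genes for GPD1, so its profile was shared more widely than that of GUT1, with 15, or of GUT2, with 69.

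The gene with the profile most like that of GUT1 was PAS_chr2-1_0103, at a distance of 0.022, with levels of 32.5, 205 and 121 FPKM at the successive times. The one most like GUT2 was PAS_chr3_1242, at 0.099, with 128, 483 and 444 FPKM. The one most like GPD1 was PAS_chr3_1224, at 0.027, with 10.7, 3.67 and 2.26 FPKM. All 3 have lower levels than the gene they resemble. The levels of PAS_chr3_1224 are so low that the 1 FPKM added before taking logs shrinks its changes. In plain FPKM it fell further than GPD1, so the small distance overstates that likeness. With 3 libraries, near-equal profiles can arise among so many genes, and the distances are given as a description.

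The genes next to GUT1, GUT2 and GPD1 by tag number moved in either direction. Within 5 tags on either side of GUT1, 2 of 10 genes passed the 2-fold rule upward between 24 and 36 h and 4 passed it downward, against 9.47% and 19.4% of all genes. With 10 genes these counts are a description only. The 2 higher genes directly follow GUT1 by number. The first had levels of 385, 1269 and 1321 FPKM, and the next 1728, 3609 and 4558 FPKM. GUT1 and these genes thus stood over 2-fold above their 24 h level at both later times, and a decline in the last interval was seen in GUT1 and in neither of the others. The table does not say whether fragments were counted by strand, and the part of overlapping neighbours in these values was not tested.

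Around GUT2, none of 9 measured genes within 5 tags was at least 2-fold higher after 36 h, against 9.47% of all genes. At least 2-fold lower were 2 of the 9, against 19.4% of all genes. Their changes ran from -1.96 to 0.95, against 1.97 for GUT2. With 9 genes these counts are again a description only. Around GPD1, 2 of 10 genes passed the rule downward and 2 upward, against 19.4% and 9.47% of all genes. Their changes ran from -2.45 to 7.59. With 10 genes, the counts around GPD1 are likewise a description only. The gene directly before GPD1 changed by 0.09 from 24 to 36 h and by -1.08 from 24 to 48 h, against -1.37 and -1.86 for GPD1. The gene directly after it changed by 0.68 and 2.64. Like GPD1, the gene 2 tags before it was lower at each step, with levels of 2764, 503 and 272 FPKM. A decline at each step was seen in 31.5% of all genes. For 48 h against 24 h, 4 of the 10 genes around GPD1 passed the rule upward and 3 downward. The shares of all genes there were 18.2% and 28.0%.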

How the data were processed

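Bead-isolated messenger RNA went into 3 VAHTS Universal libraries, per the labels' protocols. CASAVA and HISAT2 2.1.0 are named in the submitters' processing notes. Not given in the sources used here are how gene values were computed, the genome build, annotation, strand setting and filters. The authors deposited 1 FPKM value per gene and library, per the file headers. Each column carries the code of a sample title, which gives its time.

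FPKM divides by the fragments of the library, so a fall of abundant genes raises all others. Changes are differences of log2(FPKM + 1), a scale that understates those of low genes, over 5028 genes that reached 1 FPKM in any library; the other 12 were left out. Changes were called from 2-fold, a rule of size and not a test. There were 3 comparisons. Alternatives were 0.1 and 10 as pseudocount, a limit of 10 FPKM or none for keeping genes, median-of-ratios, trimmed-mean (30% of ratios, 5% of levels trimmed per side) and equal-total scaling, and a 4-fold rule. For each comparison, 19 to 34 genes lay below 3 FPKM in each library of the pair. At most 47.4% of the ratios of their values came within 0.2% of ratios of whole numbers up to 12 under a common scaling. Whole reads were not recovered in this way. The search left out larger whole numbers and had no rate for unrelated values beside it, so it cannot settle the depth, which stays unknown.

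None of the 5040 tags (0) matched the 5305 genes of the reference table, which covers Komagataella pastoris, a species related to that of GS115. Of 18 other glycerol gene symbols sought, 6 are in that table and 0 could be paired with a tag, so no values are given for them. For each of the 3 genes, the tag with the nearest profile is named. The genes and the rules were chosen with earlier results of these data known. The code for counting and scaling was run on simulated data with set changes, as many up as down, and an assumed spread. That is a check of the code only, since these data have no replicates to give their own spread. Python 3.11.15, numpy 2.4.6, pandas 2.3.3 and matplotlib 3.10.9 were used.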

Additional observations from a re-analysis of the deposited data

How the results depend on the processing

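Under the other pseudocounts and scalings, 45 of 45 recomputed changes of GUT1, GUT2 and GPD1 kept their direction and side of the 2-fold rule. The limits for keeping genes were not tried on these changes. Ratios between these genes were recomputed with the other pseudocounts only, and 18 of 18 kept direction and side. Those pseudocounts are small beside the levels of these genes, 163 FPKM or more, and could hardly move a change or a ratio. The agreement under them is thus no check. The scalings shift all genes of a comparison by about the same amount, with log2 factors from -0.256 to 0.003. In each comparison these factors were smaller than the distance of the 3 changes from the 2-fold limit. The agreement under the scalings shows only that. Over those pseudocounts and scalings the change from 24 to 36 h ranged from 2.61 to 2.89 for GUT1, from 1.95 to 2.21 for GUT2 and from -1.37 to -1.13 for GPD1. GUT2 thus lay on either side of 4-fold depending on the scaling, as did GUT1 from 24 to 48 h, with 1.85 to 2.14. The 42 recounts of all genes stayed within 1.5 times the reported counts, but the balance moved. Trimmed-mean scaling gave 50.7% higher among the changed genes for 48 h against 24 h, in place of 39.3%. With the 4-fold rule, stricter by construction, GUT2 at 1.97 and GPD1 at -1.37 no longer passed for 36 h against 24 h, nor did GUT1 at 1.89, GUT2 at 1.71 and GPD1 at -1.86 for 48 h against 24 h. Under that rule the numbers of higher and lower genes were 131 and 261 in the first interval, 142 and 149 in the second, and 341 and 498 over the whole course. No paired analysis was possible because there is 1 library per time point, and no library could be left out. The unknown depth and missing replicates limit all values given.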

Other observations

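The gene whose tag lies 2 places after GPD1 had levels of 3.17, 802 and 5.21 FPKM at the successive times. Its change of log2(FPKM + 1) was 7.59 from 24 to 36 h and -7.02 from 36 to 48 h, while the gene between it and GPD1 had 23.4, 38.1 and 152 FPKM. It was noticed after the values were seen, and a high value in a single unreplicated library has no check here.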
